A study of Mus musculus with 6 samples.

Results

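The integrin subunits and laminin chains were measured in mammary tumors of NeuT/ATTAC mice treated with a control antibody or with an antibody against PD-1. They were taken by gene symbol from the protein-coding integrin α subunits, integrin β subunits and laminin α, β and γ chains. The genes described here number 36 out of the 54532 gene IDs listed for every tumor. Of these, 26 encode integrin subunits (18 α and 8 β) and 10 encode laminin chains. All 36 were listed in all tumors, and 30 had a mean of at least 0.5 FPKM (fragments counted per length of exon and per size of the library) and were tested. The other 6, Itga7, Itgad, Itga4, Lama2, Lama3 and Lamc3, lay under this level and are given as values.

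RNA was sequenced in 6 samples, 3 from mice given IgG and 3 from mice given anti-PD-1, each taken here as 1 whole tumor with 1 library. The study describes the RNA of a group as pooled, so this is an assumption. All mice carried the same pair of transgenes. The MMTV-NeuT line, FVB-Tg(MMTV-Erbb2)NK1Mul/J, expresses the Erbb2 oncogene from the MMTV promoter, which is active mainly in mammary epithelium. FAT-ATTAC carries a drug-activated caspase in adipocytes and was brought from C57BL/6 into the FVB strain before the cross. All mice received AP20187 at 0.4 mg/kg from 6 weeks of age, which induces mammary fibrosis in this model, so that IgG tumors are not a fibrosis-free control. From 8 weeks, 100 μg of anti-PD-1 or of a matching isotype IgG was injected into the peritoneum 2 times per week over 4 months. The exact age of each mouse at tumor collection and whether any tumors came from one litter were not given. The p-values measure the spread between these tumors, taken as independent. Likeness through age or litter was not taken into account. The comparison asks how the tumors under PD-1 blockade differ from tumors under control antibody in the genes that attach cells to their matrix.

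Integrins are paired αβ receptors at the cell surface, which bind extracellular matrix or other cells and link them to the cytoskeleton. In epithelium, α6β4 anchors cells to the basement membrane in hemidesmosomes, α3β1 and α6β1 bind laminins, and αvβ6 and αvβ8 activate latent TGF-β. The β2 and β7 integrins belong to leukocytes. Laminins are αβγ trimers that form the scaffold of basement membranes. Laminins of stratified and glandular epithelium that hold the α3 chain are ligands of α6β4, and the α5 and α4 chains enter the laminins of most epithelial and of vascular basement membranes.

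The 6 libraries held 21320856 to 24165704 reads recovered from the FPKM values, so that the floor of 3 reads on a 2 kb transcript corresponded to 0.0586 to 0.0682 FPKM. This floor covers counting error only. Luminal epithelial markers, as in a mammary tumor, were high and summed to 1869 to 2628 FPKM in IgG and 2502 to 3634 FPKM in anti-PD-1 tumors. Skeletal muscle markers ranged from 0.147 to 118 FPKM and were high in IgG tumor 2 and in anti-PD-1 tumors 1 and 2, so both groups held tumors with such RNA. Genes of chromosome 4 and of chromosome 9 were shifted as a block, with a median log2 fold change of -0.40 over 926 genes and of -0.36 over 798 genes, against 0.01 over all 15069 genes tested. On both chromosomes the median gene was above its mean in IgG tumors 2 and 3 (by 0.33 to 0.37) and below it in IgG tumor 1 and in all anti-PD-1 tumors (-0.26 to -0.04). On chromosome 15, which holds Itga5 and Itgb7, it was raised in anti-PD-1 tumor 3 (0.34) and lay between -0.16 and 0.01 in the others. On chromosome 8, which holds Itgb1, it was at 0.14, -0.29 and 0.14 in anti-PD-1 tumors 1, 2 and 3 and between -0.06 and 0.04 under IgG. On chromosome 2, which holds Itga6 and Fermt1, it was at 0.20 in IgG tumor 3 and between -0.08 and -0.01 in the others. The part of these shifts in the values of single genes was not tested.

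The promoters shown are those of the highest chain Itgb1, of Itga8, the chain least variable across tumors, and of Lamb3, the chain most variable among those tested. Each is the 250 bases before the gene's start in the RefSeq table of GRCm38.p6, 5′ to 3′ on the gene's strand, with CG dinucleotides in capitals. They lie at chr8:128685404-128685653 on the plus strand, chr2:12301945-12302194 on the minus strand and chr1:193301744-193301993 on the plus strand. In the gene models used for exon lengths, the Itgb1 and Itga8 genes start outside these windows, whereas the Lamb3 model has an earlier start and holds its whole window.
Itgb1: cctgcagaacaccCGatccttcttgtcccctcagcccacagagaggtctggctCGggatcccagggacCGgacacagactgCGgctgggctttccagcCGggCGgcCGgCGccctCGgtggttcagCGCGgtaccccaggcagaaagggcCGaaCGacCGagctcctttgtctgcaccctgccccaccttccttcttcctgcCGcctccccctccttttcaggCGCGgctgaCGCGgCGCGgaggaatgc
Itga8: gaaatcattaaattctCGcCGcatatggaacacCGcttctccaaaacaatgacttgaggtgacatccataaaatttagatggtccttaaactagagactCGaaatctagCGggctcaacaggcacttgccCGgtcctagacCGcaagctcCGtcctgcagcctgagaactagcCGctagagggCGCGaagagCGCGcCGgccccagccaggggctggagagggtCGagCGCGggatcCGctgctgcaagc
Lamb3: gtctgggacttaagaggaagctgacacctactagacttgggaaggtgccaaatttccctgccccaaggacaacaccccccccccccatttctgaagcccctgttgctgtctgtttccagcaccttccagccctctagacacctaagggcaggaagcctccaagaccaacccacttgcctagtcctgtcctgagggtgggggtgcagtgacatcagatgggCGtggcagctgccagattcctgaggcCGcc
The Itgb1 window held 21 CG dinucleotides and the Itga8 window held 18, whereas that of Lamb3 held 2. The median over 32851 promoters was 6, and 16.3%, 21.7% and 81.2% of promoters held as many or more. Of the 4 motifs searched on both strands, the GC box (GGGCGG, in 32.7% of all promoters) was in the Itgb1 window 1 time. The AP-1 letters (TGANTCA, 6.75%), the TATA box (TATAAA, 12.4%) and the E-box (CACGTG, 6.02%) were in none of the 3 windows, and the GC box was in neither of the other windows. Promoters were matched for 23 of the 36 genes, with CG counts from 0 for Lama2 to 22 for Itga3.

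The broadly expressed integrins gave the highest levels. Values are given for tumors 1, 2 and 3 of each group in that order. Itgb1, the common β partner of most matrix-binding α subunits, was at 235, 276 and 149 FPKM in IgG tumors and at 207, 153 and 211 FPKM in anti-PD-1 tumors. Its lowest tumor exceeded the highest tumor of any other chain, while all other neighbours in the order of mean levels overlapped in range. Its log2 fold change was -0.17 (SE 0.27, limma adjusted p = 0.823), and the groups overlapped. Itgb5, a β partner of αv that binds vitronectin, was at 65.5, 53.4 and 91.3 FPKM under IgG and at 86.7, 48.8 and 90.9 FPKM under anti-PD-1. Itgav, the α subunit shared by the RGD-binding and TGF-β-activating receptors, was at 22.0, 17.7 and 17.2 FPKM and at 21.7, 14.1 and 24.4 FPKM. In both genes the groups overlapped, and the median log2 fold change of these 3 genes was 0.06.

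**Figure D1:**
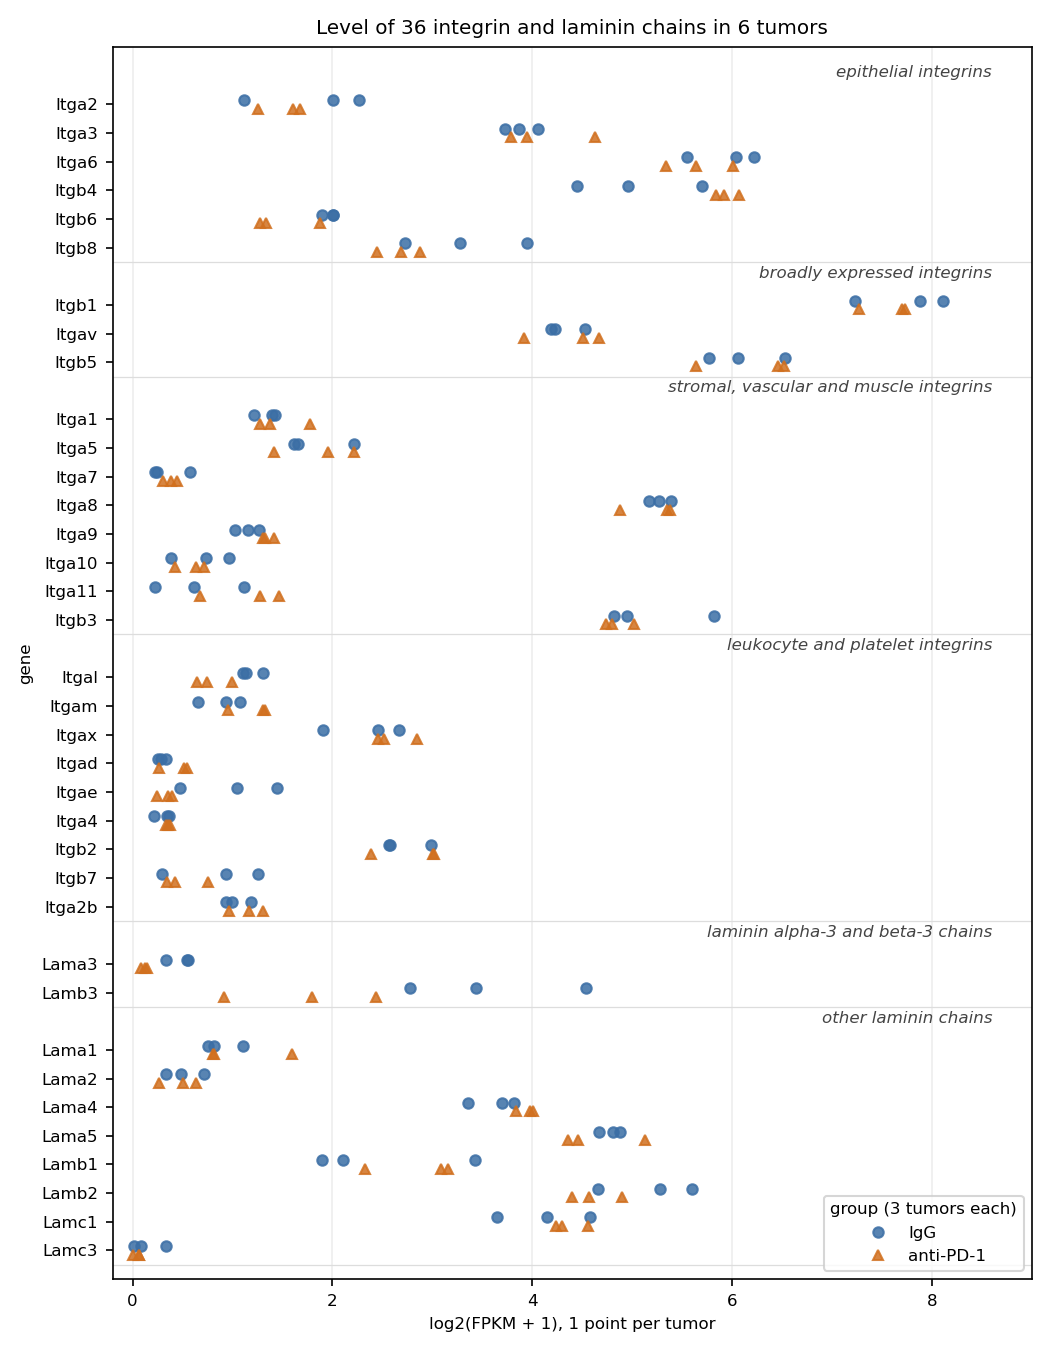
Level of each of the 36 chains as log2(FPKM + 1), with 1 point per tumor (circles, 3 IgG tumors; triangles, 3 anti-PD-1 tumors), by role group. Itgb1 lies apart from all others on the right, and the circles and triangles separate for Itgb4, Itgb6, Itga9, Itgal, Itgae, Lama3, Lamb3 and Lama4.

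The epithelial integrins did not move together. Itgb4, the β4 subunit whose long cytoplasmic tail binds the hemidesmosome plaque, was at 51.0, 20.8 and 30.1 FPKM in IgG tumors and at 59.5, 66.1 and 56.3 FPKM in anti-PD-1 tumors. All anti-PD-1 tumors lay above all IgG tumors, with group means of 34.0 ± 15.5 (SD, n = 3) and 60.6 ± 4.98 FPKM (SD, n = 3). The log2 fold change was 0.91 (SE 0.31, limma adjusted p = 0.357). Its unadjusted p was under 0.05 in the full set, but not without IgG tumor 2 (log2 fold change 0.62), IgG tumor 3 (0.87) or anti-PD-1 tumor 2 (0.85). The exact permutation test gave p = 0.1, the smallest that 3 against 3 tumors allow (two-sided). Of the 5 luminal epithelial markers, 4 had higher estimates too and 1, Krt19, a lower one (median log2 fold change 0.41). The part of luminal cells in the Itgb4 values was not tested. In bulk tumors, a difference in the number of cells of a type and one in RNA per cell cannot be told apart.

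Itga6, the α6 subunit that pairs with β4 or β1, was at 64.5, 45.8 and 73.5 FPKM in IgG tumors and at 39.5, 63.4 and 48.8 FPKM in anti-PD-1 tumors. The groups overlapped (log2 fold change -0.27, SE 0.25, limma adjusted p = 0.678), and the estimate had the opposite sign to that of its partner Itgb4. It was -0.13 without IgG tumor 3, -0.11 without anti-PD-1 tumor 1, -0.46 without IgG tumor 2 and -0.44 without anti-PD-1 tumor 2. The ratio of Itga6 to Itgb4 FPKM was 1.26, 2.20 and 2.44 in IgG tumors and 0.664, 0.960 and 0.866 in anti-PD-1 tumors. Itga6 thus exceeded Itgb4 in all IgG tumors and lay under it in all anti-PD-1 tumors. Itgb4 made up 12.9%, 5.12% and 8.84% of the summed FPKM of the β subunits under IgG and 14.9%, 21.6% and 14.1% under anti-PD-1.

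Itga3, the α subunit of the laminin receptor α3β1, was at 15.6, 13.6 and 12.2 FPKM under IgG and at 23.8, 14.4 and 12.8 FPKM under anti-PD-1. Only anti-PD-1 tumor 1 lay above the IgG tumors. Itga2, the collagen-binding α2 subunit, was at 3.80, 3.01 and 1.16 FPKM and at 1.39, 2.20 and 2.05 FPKM, with all anti-PD-1 tumors inside the IgG range. Of the 3 α subunits that pair with β1 in epithelium, Itga6 held 61.0% to 84.6% of the summed FPKM.

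Itgb6 and Itgb8, which encode the β subunits of the TGF-β activators αvβ6 and αvβ8, both had lower estimates under anti-PD-1. Itgb6, the epithelial partner of αv, was at 3.02, 3.02 and 2.73 FPKM in IgG tumors and at 1.42, 2.67 and 1.52 FPKM in anti-PD-1 tumors. The groups did not overlap, by a margin set by anti-PD-1 tumor 2 (log2 fold change -0.47, SE 0.21, limma adjusted p = 0.420). Itgb8 was at 8.72, 14.4 and 5.61 FPKM and at 6.36, 5.45 and 4.44 FPKM. Its highest value came from IgG tumor 2 and the groups overlapped (log2 fold change -0.64, SE 0.31, limma adjusted p = 0.440). Without IgG tumor 2 the log2 fold change of Itgb8 was -0.33. Their substrate gene Tgfb1 was at 10.2, 4.85 and 10.3 FPKM under IgG and at 20.8, 11.5 and 19.7 FPKM under anti-PD-1, where all tumors were higher (log2 fold change 0.98, SE 0.33, limma adjusted p = 0.357). The 6 epithelial integrins had a median log2 fold change of -0.27, with 2 estimates higher and 4 lower, and the median was -0.13 without IgG tumor 1 or anti-PD-1 tumor 1.

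**Figure D2:**
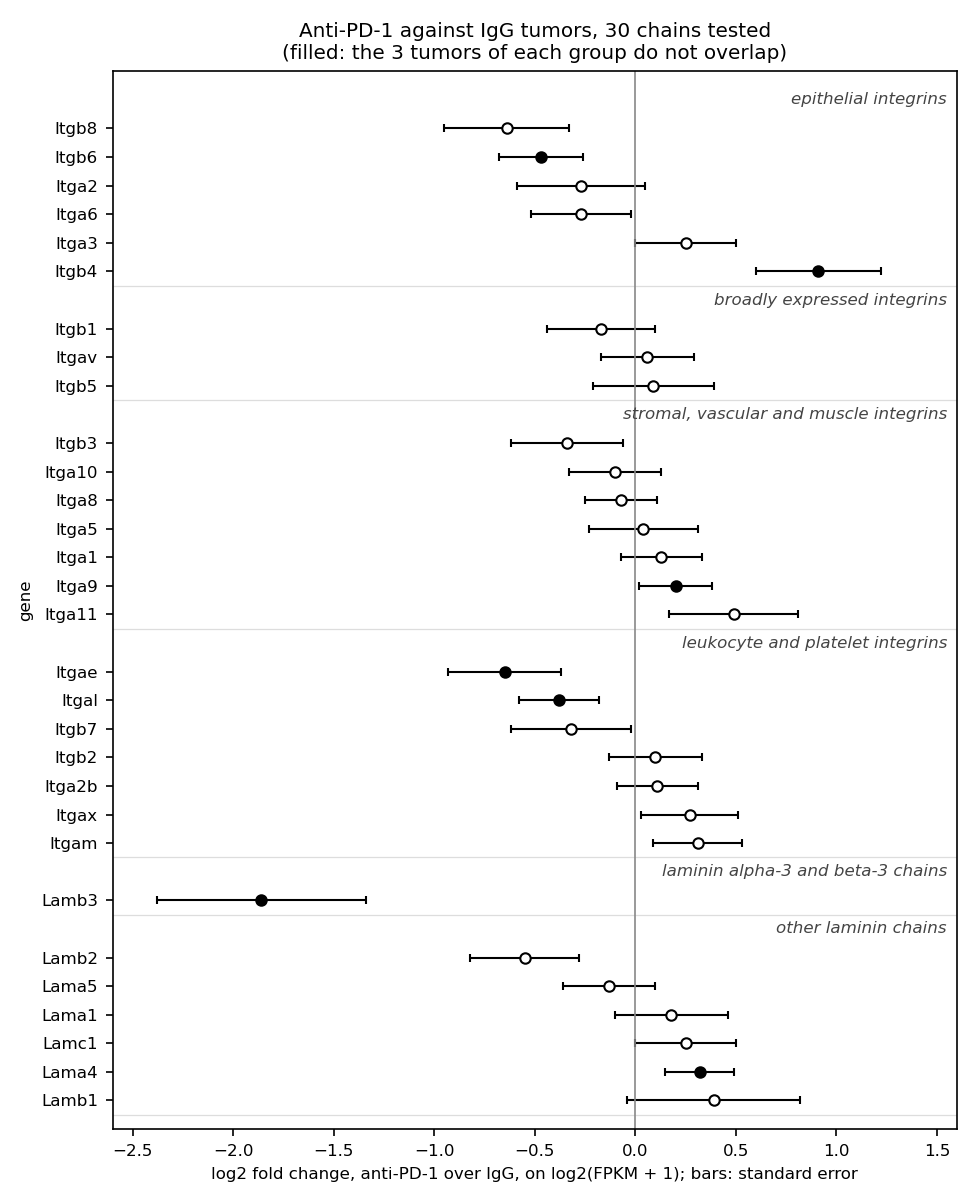
log2 fold change of anti-PD-1 over IgG tumors on log2(FPKM + 1) for the 30 chains tested, with bars of 1 standard error, where filled points mark chains whose groups of 3 tumors did not overlap. Lamb3 lies at -1.86 and Itgb4 at 0.91, while 25 of the 30 lie within 0.5 of no difference on this scale, which understates the change of low chains (20 with 0.1 added to the FPKM and 19 with voom, limma on log counts, of the recovered reads).

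Among the stromal, vascular and muscle integrins, Itga8 and Itgb3 were by far the highest. Itga8, the α8 subunit that binds nephronectin through α8β1, was at 37.5, 40.8 and 34.9 FPKM under IgG and at 39.6, 28.4 and 40.5 FPKM under anti-PD-1. It varied 1.44-fold from its lowest to its highest tumor, and its log2 fold change was -0.07 (SE 0.18, limma adjusted p = 0.898). It shares 372 of its 7368 exon bases with E030013I19Rik on the other strand, and whether the counting used strand is not given in the sources used here. The nephronectin gene Npnt, singled out after its values were seen, was at 99.7, 68.8 and 381 FPKM and at 111, 56.2 and 186 FPKM, a 6.79-fold range across tumors in which Itga8 stayed between 28.4 and 40.8 FPKM. Itgb3, the β3 subunit of the αv receptor of vessels and of the platelet receptor, was at 27.2, 29.9 and 55.6 FPKM and at 31.4, 25.6 and 26.9 FPKM, with IgG tumor 3 standing above the others. The 6 endothelial markers together summed to only 9.72 to 21.3 FPKM, less than Itgb3 in every tumor, and its platelet partner Itga2b had a mean of 1.15 FPKM. Which cells of the tumors held the Itgb3 RNA was not tested. Itga5, the fibronectin receptor α subunit, was at 3.66, 2.07 and 2.15 FPKM and at 3.64, 1.67 and 2.89 FPKM, and its groups overlapped.

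The other genes of this group were low. Itga1 and Itga11 encode collagen receptors, and Itga1 lay between 1.33 and 2.42 FPKM. Itga11, an α subunit of fibroblasts, was at 1.16, 0.171 and 0.535 FPKM under IgG and at 1.42, 0.595 and 1.77 FPKM under anti-PD-1 (log2 fold change 0.49, SE 0.32, limma adjusted p = 0.556). With only 0.1 added to the FPKM the estimate was 1.07, and with voom on recovered reads 1.29, while it was 0.28 without IgG tumor 2 and 0.32 without anti-PD-1 tumor 3. Fibroblast markers also varied widely within groups, summing to 76.5 to 235 FPKM under IgG and 90.6 to 338 FPKM under anti-PD-1. Their part in the Itga11 values was not tested. Itga9 was at 1.41, 1.23 and 1.04 FPKM and at 1.47, 1.66 and 1.50 FPKM, so that all anti-PD-1 tumors were higher, though by a log2 fold change of 0.20 (SE 0.18, limma adjusted p = 0.663). Itga9 and Itga11 lie on chromosome 9, whose median gene had a lower estimate (-0.36). Itga10 lay between 0.308 and 0.946 FPKM. Itga7, the laminin receptor of skeletal muscle, was at 0.168, 0.494 and 0.182 FPKM and at 0.357, 0.234 and 0.307 FPKM. The muscle markers summed to 0.147, 112 and 3.88 FPKM and to 63.5, 118 and 0.328 FPKM, and their part in the Itga7 values was not tested. The median log2 fold change of the 7 genes tested here was 0.04.

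Leukocyte integrins were present at low levels, and the β2 family was led by Itgax. Itgb2, the shared β2 subunit, was at 4.93, 6.95 and 4.97 FPKM in IgG tumors and at 7.12, 4.24 and 7.06 FPKM in anti-PD-1 tumors (log2 fold change 0.10, SE 0.23, limma adjusted p = 0.882). Itgax, the CD11c subunit of dendritic cells and macrophages, was at 4.50, 5.36 and 2.75 FPKM and at 4.74, 4.50 and 6.20 FPKM. Itgam, the CD11b subunit of myeloid cells, was at 1.10, 0.912 and 0.571 FPKM and at 1.47, 0.936 and 1.50 FPKM (log2 fold change 0.31, SE 0.22, limma adjusted p = 0.588, and 0.56 with 0.1 added, 0.63 with voom and 0.19 without IgG tumor 3). In all 3 genes the groups overlapped. Leukocyte markers overlapped too, at 30.0 to 57.4 FPKM under IgG and 33.1 to 48.4 FPKM under anti-PD-1, as did neutrophil markers (1.61 to 11.2 and 4.22 to 24.4 FPKM). Macrophage markers, whose sum is mostly C1qa and C1qb, summed to 185 to 325 and 242 to 390 FPKM. All 6 had estimates above 0 (median log2 fold change 0.37), although those of Adgre1 (0.01) and Csf1r (0.11) were close to it. Of the 6, Cd68 alone did not overlap (16.7% of the list, beside 9.10% of all genes in that direction). Cd68 was at 18.3, 15.2 and 13.8 FPKM under IgG and 22.1, 30.7 and 29.3 FPKM under anti-PD-1 (log2 fold change 0.76, limma adjusted p = 0.344). The part of macrophages in the Itgax and Itgam values was not tested.

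Itgal, the CD11a subunit of LFA-1 that is carried above all by lymphocytes, had a lower estimate. It was at 1.15, 1.47 and 1.20 FPKM in IgG tumors and at 0.678, 0.565 and 1.000 FPKM in anti-PD-1 tumors. All anti-PD-1 tumors were lower (log2 fold change -0.38, SE 0.20, limma adjusted p = 0.467). The log2 fold change was -0.72 with 0.1 added and -0.80 with voom. Of the summed FPKM of the 4 α partners of β2, Itgal made up 16.5%, 18.4% and 25.5% under IgG and 9.23%, 9.11% and 11.0% under anti-PD-1, again without overlap. Itgax held 58.3% to 72.6% and Itgad 3.18% to 6.25%.

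The αE and β7 subunits, which pair as the CD103 receptor of intraepithelial T cells and of some dendritic cells, were at their highest in IgG tumors 2 and 3. Itgae was at 0.387, 1.73 and 1.06 FPKM under IgG and at 0.281, 0.189 and 0.312 FPKM under anti-PD-1. The groups did not overlap, although IgG tumor 1 lay close to the anti-PD-1 tumors (log2 fold change -0.65, SE 0.28, limma adjusted p = 0.414). The means were 0.261 and 1.06 FPKM, so that Itgae, like Itgb7, passed the level for testing through the IgG group alone, and the log2 fold change was -1.50 with 0.1 added to the FPKM in place of 1 and -1.80 with voom on recovered reads. The estimate was -0.42 without IgG tumor 2 and -0.91 without IgG tumor 1, where the unadjusted p was under 0.05. The Itgae gene model spans Haspin on the other strand and shares 0 exon bases with it. Itgb7 was at 0.230, 1.38 and 0.917 FPKM and at 0.338, 0.268 and 0.684 FPKM, and its groups overlapped. Itgae and Itgb7 varied together over the 6 tumors (Pearson r = 0.90, exact permutation p = 0.0153, adjusted p = 0.137 over 9 partner pairs, Spearman rho = 0.66, exact permutation p = 0.175, adjusted p = 0.725). The relation rested on IgG tumors 2 and 3, without which r was 0.08. The exact two-sided test of the other pairs gave no adjusted p under 0.05 either.

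T cell markers were low, at 0 to 1.20 FPKM, and none of the 6 reached the level needed for testing. They summed to 1.46, 4.39 and 1.65 FPKM in IgG tumors and to 1.35, 0.488 and 1.67 FPKM in anti-PD-1 tumors, with Cd3e, Cd3d and Trac at 0 in anti-PD-1 tumor 2. Of the list, Cd3d alone did not overlap and was at 0.300, 1.06 and 0.203 FPKM against 0.0646, 0 and 0.0696 FPKM. Of all genes tested, 8.99% were lower without overlap. The part of T cell number in the values of Itgal, Itgae and Itgb7 was not tested. Itga4, which pairs with β1 or β7 on lymphocytes, lay between 0.163 and 0.293 FPKM, and Itgad lay between 0.191 and 0.459 FPKM. Itga2b, the platelet αIIb subunit, lay between 0.917 and 1.47 FPKM, beside platelet markers, of which it is one, that summed to 3.53 to 6.44 FPKM. The 7 leukocyte and platelet integrins tested had a median log2 fold change of 0.10.

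The α3 and β3 laminin chains were both lower in all anti-PD-1 tumors. Lamb3, the β3 chain, was at 9.83, 22.2 and 5.87 FPKM in IgG tumors and at 2.48, 4.42 and 0.891 FPKM in anti-PD-1 tumors. All anti-PD-1 tumors lay below all IgG tumors, with means of 2.60 ± 1.77 (SD, n = 3) against 12.6 ± 8.54 FPKM (SD, n = 3). The log2 fold change was -1.86 (SE 0.52, limma adjusted p = 0.344), the largest in size among the 30 chains tested. Leaving out each tumor in turn, it lay between -2.27 and -1.38, and the unadjusted p stayed under 0.05 in all 6 refits. Lamb3 varied 24.9-fold across tumors, and tumors of one group differed several-fold. Its gene model spans G0s2 and Hsd11b1 on the other strand and shares 0 exon bases with either. G0s2 itself was lower without overlap, at 83.2 to 157 FPKM under IgG and 18.0 to 51.8 FPKM under anti-PD-1, and its part in the Lamb3 values was not tested.

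Lama3, the α3 chain, which occurs in epithelial laminins, was at 0.262, 0.454 and 0.469 FPKM under IgG and at 0.102, 0.0883 and 0.0627 FPKM under anti-PD-1. These values stand for 62, 117 and 123 recovered reads against 28, 23 and 16. All anti-PD-1 tumors were lower, and the exact permutation test gave p = 0.1. It lay under the level for testing. With no filter on low values its log2 fold change was -0.36 (limma adjusted p = 0.556), on a scale that understates the change of low genes. The ratio of Lamb3 to Lama3 FPKM ranged from 12.5 to 50.1 over the tumors, and its groups overlapped.

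**Figure D3:**
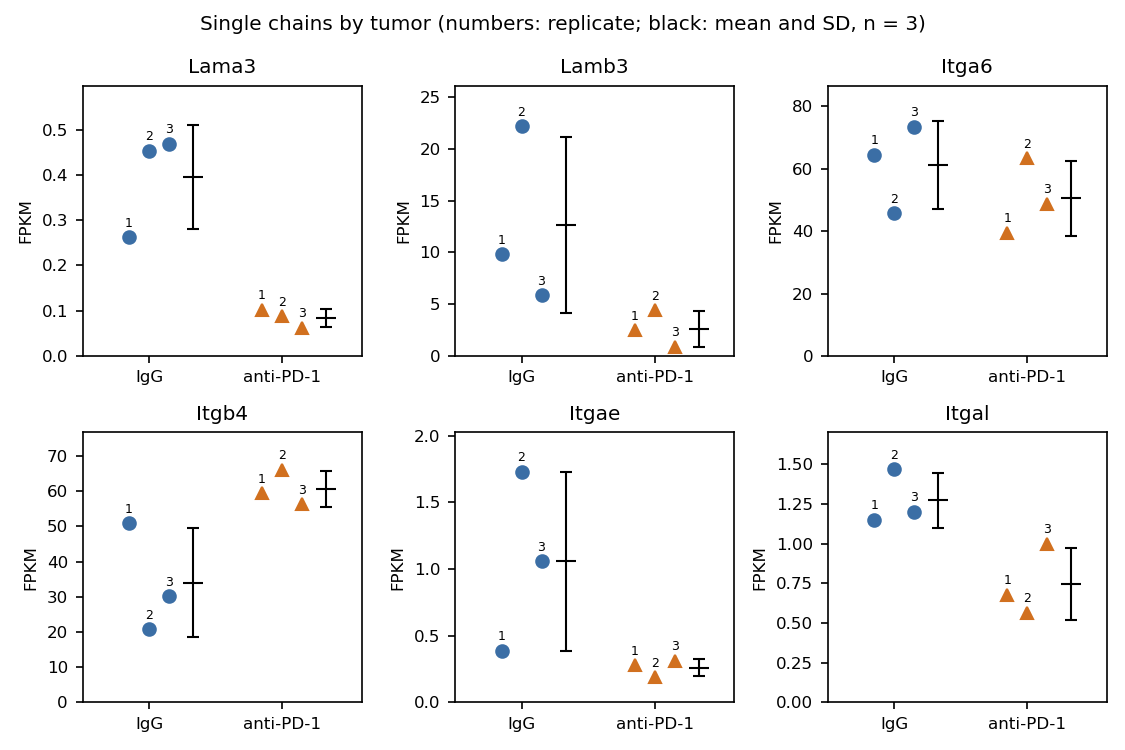
FPKM of 6 chains by tumor (circles, IgG; triangles, anti-PD-1; numbers, replicate), with the mean and SD of each group of 3 in black. Lama3, Lamb3, Itgae and Itgal are lower and Itgb4 is higher in all anti-PD-1 tumors, whereas Itga6 overlaps.

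Markers of basal and myoepithelial cells, which border the basement membrane in the normal gland, were lower in all anti-PD-1 tumors too when summed. They summed to 7.77, 12.7 and 11.2 FPKM in IgG tumors and to 5.32, 5.48 and 6.20 FPKM in anti-PD-1 tumors, and all 5 that were tested had lower estimates. The oxytocin receptor gene Oxtr, at 4.64, 5.77 and 4.23 FPKM against 0.824, 2.72 and 4.91 FPKM, made up much of the sum. Without it, a choice made after the values were seen, the sums were 3.13, 6.93 and 7.02 FPKM and 4.49, 2.76 and 1.29 FPKM, and the groups overlapped. Singly, only Krt17 and Cnn1 of the 6 did not overlap, beside 8.99% of all genes in that direction, and both passed the level for testing through the IgG group alone. Krt17, the basal keratin 17, was at 0.527, 0.967 and 1.06 FPKM and at 0.378, 0.106 and 0.0271 FPKM. Krt5 and Krt14, the defining keratins, were low in all tumors, at 0.248 to 2.44 and 0.311 to 2.99 FPKM, and overlapped between the groups. The part of basal cells in the Lama3 and Lamb3 values was not tested. Within the luminal list, Krt19 was at 7.84, 77.9 and 7.46 FPKM and at 4.09, 5.27 and 1.70 FPKM, its highest value in IgG tumor 2 like that of Lamb3, whereas Epcam was at 885, 861 and 690 FPKM and at 988, 1150 and 1122 FPKM.

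The other laminin chains made up most of the laminin RNA. Lama5, the α5 chain of epithelial and vascular basement membranes, was at 27.0, 24.5 and 28.4 FPKM under IgG and at 20.9, 19.5 and 34.0 FPKM under anti-PD-1, with anti-PD-1 tumors at both ends of the range. Lama4, the α4 chain of vessels, muscle and fat, was at 13.1, 9.21 and 12 FPKM and at 13.3, 15.1 and 14.7 FPKM. All anti-PD-1 tumors were higher, narrowly so between IgG tumor 1 and anti-PD-1 tumor 1 (log2 fold change 0.32, SE 0.17, limma adjusted p = 0.475, and 0.19 without IgG tumor 2). Endothelial markers overlapped, at 15.2 to 21.3 FPKM under IgG and 9.72 to 19.0 FPKM under anti-PD-1, as did adipocyte markers at 4.05 to 5.72 and 1.78 to 6.96 FPKM, and their part in the Lama4 values was not tested. Lama5 held 52.7% to 69.7% and Lama4 held 26.2% to 41.0% of the summed FPKM of the 5 α chains. Lama3 held 1.01% ± 0.344 (SD, n = 3) under IgG and 0.217% ± 0.0830 (SD, n = 3) under anti-PD-1, without overlap. Lama1 lay between 0.693 and 2.03 FPKM and was highest in anti-PD-1 tumor 2, and Lama2, the muscle laminin chain, lay between 0.204 and 0.642 FPKM.

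Lamb2, the β2 chain, had the highest mean over the 6 tumors of the laminin chains given here, although Lama5 exceeded it in IgG tumor 1 and anti-PD-1 tumor 3. It was at 24.2, 37.8 and 47.5 FPKM in IgG tumors and at 28.9, 20.1 and 22.7 FPKM in anti-PD-1 tumors. IgG tumor 1 lay within the anti-PD-1 range (log2 fold change -0.55, SE 0.27, limma adjusted p = 0.444). Without IgG tumor 1 the estimate was -0.81, with an unadjusted p under 0.05, and without IgG tumor 3 it was -0.34. Lamb2 lies on chromosome 9, where IgG tumors 2 and 3 were high for the median gene as well (deviations of 0.33 and 0.33 in log2), and the part of this shift in its values was not tested. Lamb1, the β1 chain, was at 9.77, 3.31 and 2.73 FPKM and at 7.94, 7.51 and 4.03 FPKM. It was high in IgG tumor 1, where Lamb2 was low, and the ratio of Lamb2 to Lamb1 ran from 2.48 to 17.4. Lamc1, the γ1 chain of most laminins, was at 22.9, 11.5 and 16.7 FPKM and at 22.5, 17.9 and 18.7 FPKM.

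Lamc3, the γ3 chain, was at 0.0137 to 0.262 FPKM in 5 tumors and had no recovered read in anti-PD-1 tumor 1, which allows up to 0.0192 FPKM. Lamb1 and Lamc1 had r = 0.74 over the 6 tumors (exact permutation p = 0.0750, adjusted p = 0.337, rho = 0.89, adjusted p = 0.300, and r = 0.77 without IgG tumors 1 and 3). The median log2 fold change of the tested chains Lama1, Lama4, Lama5, Lamb1, Lamb2 and Lamc1 was 0.21, and it was 0.06 without IgG tumor 2, 0.12 without IgG tumor 3, 0.14 without anti-PD-1 tumor 2 and 0.35 without IgG tumor 1. With no filter on low FPKM, which adds Lama2 and Lamc3, it was 0.07.

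**Figure D4:**
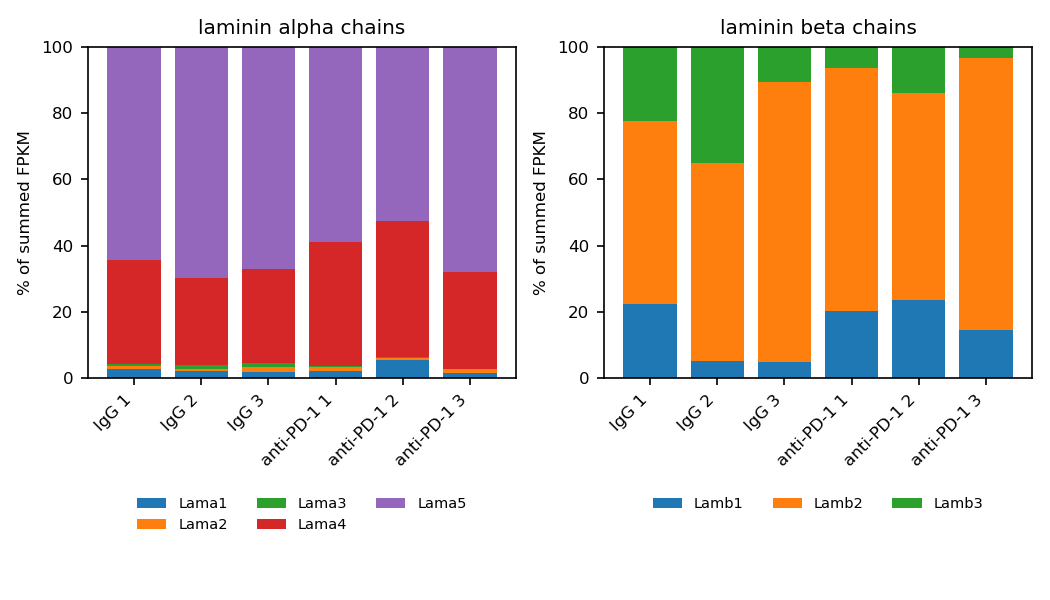
Share of each chain in the summed FPKM of the laminin α and β chains (y axis, percent) in each of the 6 tumors. Lama5 and Lama4 fill the α chains, and Lamb3 takes 10.5% to 35.1% of the β chains in IgG and 3.22% to 13.8% in anti-PD-1 tumors.

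Over the 30 chains tested, 1 (Itgb4) had an unadjusted p under 0.05 with a higher and 1 (Lamb3) with a lower value under anti-PD-1. Each is 3.33% of the chains, against 6.22% of all genes tested that were higher and 6.05% that were lower at this threshold. Groups did not overlap in 3 chains higher under anti-PD-1 (Itgb4, Itga9 and Lama4, 10%) and in 4 chains lower (Itgb6, Itgal, Itgae and Lamb3, 13.3%), beside 9.10% and 8.99% of all genes. Itgae is among the tested chains only through its IgG values, and a gene let in this way had to differ. After Benjamini-Hochberg adjustment, limma called 0 of the 15069 genes (0%), whereas 1848 had an unadjusted p under 0.05, and the smallest adjusted p of a chain was 0.344. The median log2 fold change was 0.05 over the 30 chains and 0.01 over all genes. Standard errors of the chains ran from 0.17 to 0.52. With 3 tumors per group, even estimates well past them did not pass adjustment, as for Lamb3 (-1.86, SE 0.52) and Itgb4 (0.91, SE 0.31). Differences within a standard error were thus far from detectable.

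Genes that act with the integrins were taken from 4 lists. Of 24 activators and adaptors, 0 were higher and 2 were lower at an unadjusted limma p under 0.05. Tln1, the talin that switches integrins on, was at 17.9, 30.3 and 28.6 FPKM in IgG tumors and at 16.3, 13.3 and 17.1 FPKM in anti-PD-1 tumors (log2 fold change -0.65, limma adjusted p = 0.370). Fermt1, the epithelial kindlin, was at 6.05, 8.39 and 17.3 FPKM and at 5.66, 3.78 and 5.19 FPKM (-0.87, limma adjusted p = 0.395). The groups did not overlap in either gene. Ptk2, the focal adhesion kinase, and Ilk, the integrin-linked kinase, were higher without overlap (means of 9.01 and 13.1 FPKM for Ptk2 and of 0.324 and 0.917 FPKM for Ilk, which passed the level for testing through the anti-PD-1 group alone). Groups thus did not overlap in 8.33% of the list in each direction, beside 9.10% and 8.99% of all genes. The Ilk values stand for only 13 to 96 recovered reads. Its gene model overlaps those of Rrp8 and Taf10 on the other strand, and the part of this in its values was not tested. Tln1 lies on chromosome 4, whose median gene was likewise high in IgG tumors 2 and 3, and the part of that shift was not tested. Rap1b, a small GTPase upstream of talin, had the highest means of this list, at 80.7 and 81.4 FPKM, although Fermt2 exceeded it in IgG tumor 3 (65.4 against 53.3 FPKM).

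Of the hemidesmosome and tetraspanin partners, 5 of 6 were tested, and all 5 had higher estimates (median log2 fold change 0.30), with 0 at an unadjusted limma p under 0.05. Plec, the plakin plectin that binds β4, was at 12.1, 8.80 and 13.0 FPKM under IgG and at 11.4, 11.5 and 20.9 FPKM under anti-PD-1, with overlap. Plec and Ptk2 lie on chromosome 15 and were both highest in anti-PD-1 tumor 3, where the median gene of that chromosome was raised, and the part of that shift was not tested. Cd81 had the highest mean, at 216 to 422 FPKM, although Cd9 slightly exceeded it in IgG tumor 3 (218 against 216 FPKM). Col17a1, the transmembrane collagen of full hemidesmosomes, was too low to be tested, at 0.0788, 0.231 and 0.405 FPKM under IgG and 0.142, 0.0215 and 0.0438 FPKM under anti-PD-1. Its mean was thus lower under anti-PD-1, unlike those of the 5 tested, and tumors with Itgb4 at 20.8 to 66.1 FPKM held little of its RNA.

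Among 12 tested genes for basement membrane proteins and other laminin receptors, 1 was higher and 1 was lower at an unadjusted limma p under 0.05. Agrn, the heparan sulfate proteoglycan agrin, which binds laminin, was at 26.8, 48.2 and 29.5 FPKM in IgG tumors and at 16.8, 16.4 and 13.3 FPKM in anti-PD-1 tumors (log2 fold change -1.07, SE 0.24, limma adjusted p = 0.344). All anti-PD-1 tumors were lower, and Agrn too lies on chromosome 4. Col4a5, a type IV collagen chain, was at 38.3, 25.4 and 30.6 FPKM and at 38.0, 59.0 and 41.6 FPKM (0.54, limma adjusted p = 0.406), with a slight overlap. Col4a1 had the highest mean of the list, at 22.0 to 71.3 FPKM, although other genes exceeded it in IgG tumors 2 and 3 and in anti-PD-1 tumor 2. Of 11 tested genes for other ligands, Tgfb1 was higher and 0 were lower at that threshold. Spp1, encoding osteopontin, which binds αv and β3 receptors, had the highest mean level and the highest in all tumors but IgG tumor 3, where Npnt exceeded it. It was at 3706, 3242 and 235 FPKM and at 2555, 3440 and 2208 FPKM, with IgG tumor 3 far below the rest. Over the 4 lists, 2 of 52 tested genes were higher and 3 were lower at an unadjusted limma p under 0.05, beside 6.22% and 6.05% of all genes, and none passed adjustment.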

How the data were processed

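Groups and replicate numbers were taken from the sample titles. The authors' processing notes name FastQC 0.11.9, Cutadapt 3.5, Bowtie2 2.4.1, RSEM 1.3.1, DESeq2 1.36.0 and R 4.1, with build mm10 and, in the study's methods, Ensembl release 99. The deposited values are FPKM per gene ID and tumor; how FPKM was made from the RSEM estimates is not given in the sources used here. The study describes the RNA of a group as pooled, whereas 3 samples per group were listed separately and are treated here as tumors. None held the same values as another, which does not settle whether RNA was pooled. Names, coordinates and exon lengths came from GENCODE M21 (54495 of 54532 IDs matched, 37 did not). From these lengths, 97.0% to 97.3% of values gave whole reads within 0.1.

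FPKM was divided by median-of-ratios factors (0.996 to 1.00) for the tests and compared as log2(FPKM + 1) with limma 3.58.1 (R 4.3.3, intensity trend, two-sided, Benjamini-Hochberg) over 15069 genes with a mean of at least 0.5 FPKM. Printed FPKM values are as deposited. Exact permutation tests and correlations used scipy 1.17.1. A gene that the symbol rule takes is not reported here and is left out of the counts of chains. Members, role groups and lists were chosen with earlier results of these data known. Chains with a mean of at least 2 FPKM or an unadjusted p under 0.05 were given by tumor. Fold changes with errors were given for the 10 chains of smallest p and the highest of each role group. From the lists of related genes, those at an unadjusted p under 0.05 and the highest of each were named. Further genes and values were added after their values were seen. Scripts were tested on simulated data. Alternatives were another pseudocount, no or a stricter filter, no or quantile scaling, no trend, a replicate block, voom on recovered reads (TMM factors) and each tumor left out.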

Additional observations from a re-analysis of the deposited data

How the results depend on the processing

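No integrin or laminin chain had a limma adjusted p under 0.05 under any of the 14 alternatives. The number of lower chains at an unadjusted p under 0.05, reported as 1, was 3 with no filter on low FPKM (Itgae and Lama3 added), 2 with eBayes without trend (Itgae added) and 4 with voom on recovered reads (Itgb6, Itgal and Itgae added). The replicate block gave 2 (Itgb8 added). Of all genes, 3.81%, 5.87%, 6.54% and 5.36% were lower at this threshold under these 4 settings in turn. Voom called 1 gene of the whole table after adjustment. A mean of at least 2 FPKM left 2 lower chains without overlap, since Itgal and Itgae were no longer tested. The correlations of same-numbered tumors ran from -0.16 to 0.19, and 2 of 6 tumors correlated best with their own number. With 3 tumors per group this can neither show nor exclude a pairing by replicate number. For Lamb3, the replicate block gave an unadjusted limma p of 0.000113 (adjusted p = 0.263), against 0.00872 (adjusted p = 0.344) without it. Leaving out each tumor in turn gave 0 to 2 higher and 1 to 3 lower chains at an unadjusted p under 0.05. The higher count was 2 without IgG 1 (Lamb1 added) and 0 without IgG 2, IgG 3 or anti-PD-1 2, and the lower count was 3 without IgG 1 or IgG 3 and 2 without anti-PD-1 2. The share of all genes moved too, from 3.37% without IgG 2 to 8.44% without IgG 1 for higher and from 3.01% to 9.34% for lower genes. Without overlap, 3 to 7 chains were higher (7 without IgG 1, 6 without anti-PD-1 2) and 4 to 8 were lower (8 without IgG 3, 7 without anti-PD-1 1). With 1 tumor fewer the groups separate more often in the whole table, in 11.5% to 17.5% of all genes higher and 11.4% to 18.0% lower. Over all genes, 12 had an adjusted p under 0.05 without IgG 1 and 1 without IgG 3. The sign turned for Itga8 without anti-PD-1 2 (range -0.16 to 0.09), Itgb1 without IgG 2 (-0.43 to 0.01) and Itgb2 without anti-PD-1 1 or 3 (-0.01 to 0.31). The cause was not tested. The other 11 named fold changes kept their sign in all alternatives that gave a value. The medians of the broadly expressed, leukocyte and stromal integrins also crossed 0 when single tumors were left out, the first with quantile normalization (-0.04) and the last with a mean of at least 2 FPKM (-0.07) as well.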
